A study of Homo sapiens with 2 samples.

Results

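The genes described here are 47 receptors, adaptors, lipid kinases, phosphatases and protein kinases of the receptor kinase and PI3K-AKT-mTOR pathway. The list was set by gene name, with earlier results of these data known. Every region that differed in SMARCA4 (BRG1) binding between parental and EZH2 inhibitor-resistant (EIR) cells was taken if its nearest edge lay within 1 kb of any annotated transcription start site (TSS) of a listed gene, and then if it lay elsewhere in the gene body. This gave 77 of the 12896 differential regions, and they fell at 31 of the 47 genes.

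Binding was measured by FLAG chromatin immunoprecipitation-sequencing in cells whose endogenous SMARCA4 gene carried a FLAG epitope, in 2 libraries. The parental library came from TOV21G, a line of ovarian clear cell carcinoma with mutated ARID1A, and held 25.6 M tags. The EIR library came from clone 3, picked from TOV21G cells that grew while the EZH2 inhibitor GSK126 was raised from 5 to 20 μM, and held 35.0 M tags. The tag and the ARID1A mutation are common to both lines, the EIR line is a single clone, and whether GSK126 was present at harvest is not given in the sources used here. With 1 library per condition there is no replicate check, so no p-value is given. One EIR tag was worth 0.733 parental tags after scaling to the library totals, and each fold below divides the parental tags by the EIR tags on that scale (or the reverse, where named), with an exact 95% interval that covers counting error only. Lost and gained describe the tags of the EIR library against the parental library. The authors kept only regions that differed between these libraries, so an interval that excludes 1 adds little to that choice. A gene without a region may be bound alike in both lines or not bound, and these lists cannot tell such cases apart.

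SMARCA4 is an ATPase of the SWI/SNF complex, which slides and evicts nucleosomes at promoters and enhancers. In the pathway, growth factor receptors and their docking proteins recruit PI3K, whose lipid product brings PDPK1 and AKT to the membrane. AKT in turn relieves the TSC brake on RHEB, and RHEB activates mTOR complex 1, which drives protein synthesis. PI3K signalling is often activated by mutation in ovarian clear cell carcinoma.

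Near their start sites, pathway genes lost far more binding than they gained in EIR clone 3. Of the 47 genes, 27 (57.4%) had a region with more tags in parental cells (a parental-higher region) within 1 kb of a TSS, beside 23.2% of all 20176 protein-coding genes. GHR alone (2.13% of the list) had a region with more tags in EIR cells (an EIR-higher region) there, beside 1.96% of protein-coding genes. In the gene body beyond 1 kb, 12 genes (25.5%, against 9.22%) had a parental-higher region and 3 genes (6.38%, against 3.13%) an EIR-higher region. Counting either list at any of these positions, the share was 66.0% of the pathway genes and 30.5% of protein-coding genes.

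These shares were not tested, and the pathway genes are longer and have more start sites than the average gene. Their median length was 86.9 kb against 27.2 kb for protein-coding genes, and their median number of TSS positions was 11 against 5. Of the protein-coding genes with at least 11 TSS positions, 34.0% had a parental-higher region within 1 kb, and of the 25 pathway genes with as many, 13 had one. When the 5′ end of each gene was the sole start site, 21 pathway genes (44.7%) and 18.7% of protein-coding genes had a parental-higher region. The parental-higher direction is also the direction of most of the data, since it covered 83.7% of all differential regions. The paper reports less SMARCA4 mRNA and protein in EIR cells and a general fall in SMARCA4 binding. The part of that fall in the changes at single genes was not tested.

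The shares differed by role. A parental-higher region was found near a start site of 10 of 16 receptors, 4 of 4 adaptors, 5 of 9 PI3K subunits, 2 of 3 phosphatases, 3 of 5 kinases of the AKT branch, 3 of 7 genes of the mTOR complexes and the TSC-RHEB switch, and 0 of 3 effectors of mTOR complex 1. Genes that restrain the pathway (INPP4B, PHLPP1, PHLPP2, TSC1, TSC2 and DEPTOR) had such a region in 2 of 6 cases, and the other genes in 25 of 41. With groups this small the roles were not compared by a test.

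**Figure D1:**
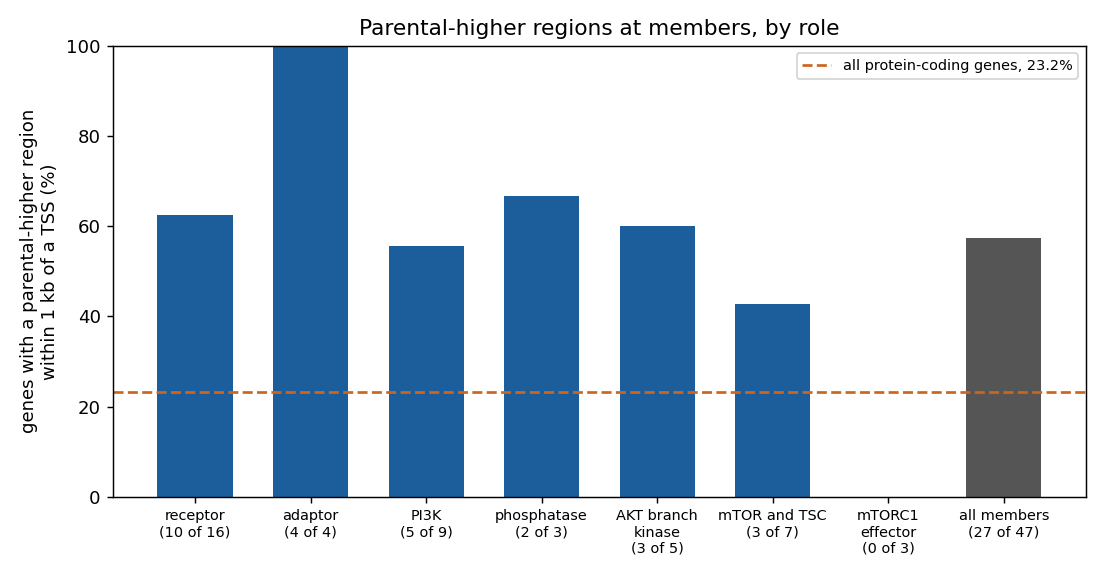
Share of genes (%, y axis from 0) with a parental-higher region within 1 kb of a TSS, for each role and for all 47 genes, with the counts under the bars. The dashed line marks the 23.2% of all protein-coding genes; every role but the effectors of mTOR complex 1, at 0 of 3, stands above it.

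Regions near start sites and regions in gene bodies were built of different sequence. The median G + C content of the 35 regions within 1 kb of a TSS was 69.1%, and that of the 42 gene-body regions 40.6%. CpG dinucleotides reached 0.834 of the number expected from base composition near start sites and 0.185 in gene bodies (medians). The same medians over all protein-coding genes were 70.1% and 44.7% for G + C and 0.834 and 0.220 for CpG, so in composition the pathway regions were close to the rest of the data. Of the regions within 1 kb, 8 had a CpG ratio under 0.5, and all 8 lay more than 3 kb from the canonical TSS (the start of the reference transcript of the gene), at alternative start sites of MET, ERBB4, FGFR1, FGFR2, PIK3C3 and PIK3R1. Those 8 had a median of 20.5 parental tags, against 80 for the other 27, so the regions with most tags were those at CpG-rich promoters.

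**Figure D2:**
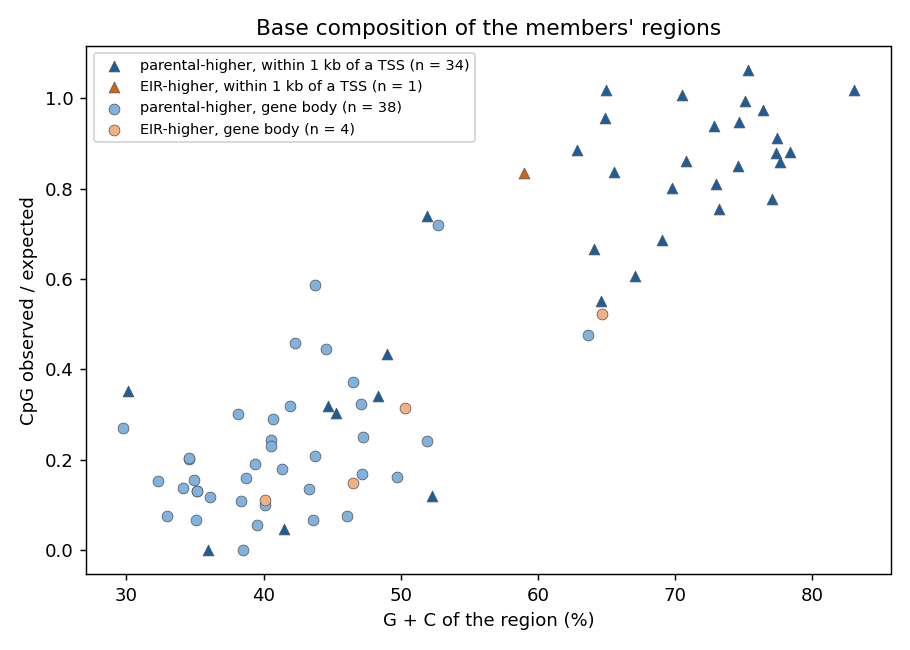
Base composition of the 77 regions, as G + C (%, x axis) against the ratio of observed to expected CpG (y axis). Triangles are the regions within 1 kb of a TSS and circles those in gene bodies, in blue shades where parental cells had more tags and in orange shades where EIR cells did; most triangles lie at the upper right, with 8 among the gene-body regions below a ratio of 0.5.

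The GC box, GGGCGG, is bound by SP family factors at CpG-rich promoters. It was present on either strand in 71.4% of the 500 bp windows centred on the regions near start sites and in 2.4% of those in gene bodies, beside 72.0% and 12.2% of all differential regions within and beyond 1 kb of a TSS. In the 80 bases before the canonical TSS, it was found at 40.7% of 19894 protein-coding genes and at 9 of the 14 pathway genes read here (64.3%), whose region covered that TSS. The 40.7% covers genes with or without a region, so the 2 shares are not like for like, and their gap was not tested. The stretches below are those 80 bases at genes whose region covered the canonical TSS, read from hg19 on the strand of the gene, with GC boxes in capitals (the capitals mark this motif on either strand). FGFR3 and IRS1 are shown as promoters with several GC boxes, and IGF1R and IRS2 as promoters with none. The regions of IGF1R and IRS2 had folds of 3.87 and 3.51, while the stretches of AKT1 (fold 3.31) and PDPK1 (fold 10.0), not printed, had 6 boxes each.
FGFR3, chr4:1794940-1795019, plus strand: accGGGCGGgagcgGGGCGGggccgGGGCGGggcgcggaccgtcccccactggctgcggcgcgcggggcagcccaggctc
IRS1, chr2:227664537-227664616, minus strand: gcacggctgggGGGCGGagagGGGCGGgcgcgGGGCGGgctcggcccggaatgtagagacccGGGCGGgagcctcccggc
IGF1R, chr15:99191688-99191767, plus strand: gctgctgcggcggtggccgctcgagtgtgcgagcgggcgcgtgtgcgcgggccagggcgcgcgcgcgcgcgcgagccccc
IRS2, chr13:110438931-110439010, minus strand: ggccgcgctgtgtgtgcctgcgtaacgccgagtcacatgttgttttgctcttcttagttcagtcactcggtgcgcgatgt

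AP-1, the FOS and JUN dimer that binds many enhancers, recognises TGACTCA or TGAGTCA. The search used the looser TGANTCA, which allows any base in the middle. This motif lay in 12 of the 42 gene-body windows (28.6%), at 9 genes, against 5.7% of the windows near start sites. Over all differential regions it was in 19.3% beyond 1 kb of a TSS and 7.8% within. The stretches below hold the first match in gene-body regions of 4 genes, with 30 bases on each side, read from hg19 on the strand of the gene, with the match in capitals. MET is shown for its 3 regions in intron 2, INPP4B and PIK3CB as genes with differential regions in the body only, and GAB2 as the single EIR-higher region with a match. The matches of GAB2 and of the MET stretches that start at 116346754 and 116367881 have A or T in the middle, so they fit the looser form only.
MET, chr7:116346754-116346820, plus strand: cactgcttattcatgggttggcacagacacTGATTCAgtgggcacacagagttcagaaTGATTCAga
MET, chr7:116347519-116347585, plus strand: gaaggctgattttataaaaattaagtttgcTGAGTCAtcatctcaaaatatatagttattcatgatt
MET, chr7:116367881-116367947, plus strand: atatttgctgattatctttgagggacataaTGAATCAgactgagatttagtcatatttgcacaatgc
INPP4B, chr4:143477333-143477399, minus strand: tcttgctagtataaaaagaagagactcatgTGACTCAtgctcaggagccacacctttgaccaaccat
PIK3CB, chr3:138493460-138493526, minus strand: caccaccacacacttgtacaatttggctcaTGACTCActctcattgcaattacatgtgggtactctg
GAB2, chr11:78124731-78124797, minus strand: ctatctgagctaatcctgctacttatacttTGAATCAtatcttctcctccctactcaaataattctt

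Of the other motifs searched on both strands, GGAATG (TEAD) lay in 17.1% of the windows near start sites and 19.0% of those in gene bodies, beside 14.7% and 27.5% of all regions. TGTTTAC (forkhead) lay in 5.7% and 7.1%, beside 2.9% and 7.3%. CACGTG (E-box) lay in 8.6% and 7.1%, beside 8.2% and 6.3%. CCGGAAG (ETS) was in 1 window near a start site, and TGACGTCA (CRE) in 0 of the 77. A match describes these letters only and does not show that a factor was bound.

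Among the receptors of the EGF family, the promoters of EGFR, ERBB2 and ERBB4 lost tags and ERBB3 had no region. EGFR, the receptor for EGF and related ligands, had 110 parental and 71 EIR tags at chr7:55086837-55087851, from exon 1 into intron 1, a fold of 2.11 (1.55 to 2.89). ERBB2, the ligandless partner of the family, had 92 and 66 tags at chr17:37856156-37857464, a fold of 1.90 (1.37 to 2.65) over its canonical TSS. ERBB4, a neuregulin receptor, had 66 and 54 tags over its canonical TSS at chr2:213403193-213403693, a fold of 1.67 (1.15 to 2.44), among the smallest of the gene set. A weaker region at an alternative TSS in ERBB4 intron 1 (chr2:213293712-213294212) had 18 and 8 tags, a fold of 3.07 (1.27 to 8.16).

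The FGF receptors FGFR1, FGFR2 and FGFR3 had 7 regions near start sites, and FGFR4 had none. FGFR1 had 132 parental and 96 EIR tags in exon 1 and intron 1, 46 bp from the canonical TSS (fold 1.88, 1.43 to 2.47), and 19 and 7 tags at an alternative start at exon 2 (fold 3.70, 1.49 to 10.4). FGFR3 had 129 and 60 tags over its canonical TSS (chr4:1794435-1796631), a fold of 2.93 (2.14 to 4.05). FGFR2 had 4 regions, the most near start sites of any gene in the set. The first, over its canonical TSS (chr10:123357402-123358240), had 77 and 57 tags and a fold of 1.84 (1.29 to 2.64). Another in intron 1 had 21 and 10 tags (fold 2.86), and a pair in intron 6, centred 73.2 and 71.8 kb into the gene, had 62 and 33 tags (fold 2.56) and 28 and 15 tags (fold 2.55). The canonical promoter of FGFR2 thus had the smallest fold of the 4, with intervals that overlapped those of the others. Chromosome 10, which carries FGFR2, held 4.53 parental-higher and 2.35 EIR-higher regions per Mb beyond 5 kb of any TSS, against 1.22 and 0.373 over the genome, and the part of this density in the FGFR2 counts was not tested.

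In the insulin and IGF branch, the IGF1R promoter showed the larger loss. IGF1R, the receptor for insulin-like growth factors, had 88 parental and 31 EIR tags over its canonical TSS (chr15:99190976-99192892), a fold of 3.87 (2.55 to 6.04). INSR, the insulin receptor, had 91 and 57 tags over its canonical TSS (chr19:7293583-7294531), a fold of 2.18 (1.55 to 3.09). The 2 regions were thus about equal in parental tags and apart in EIR tags, with fold intervals that overlapped. They differed in length, 1916 bp at IGF1R and 948 bp at INSR, so the parental tags per kb were 45.9 and 96.0. A start of the long non-coding RNA gene IRAIN lies within 1 kb of the same IGF1R region, so the tags cannot be assigned to either gene alone.

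MET and AXL had a region at an internal start site and none at the canonical one. MET, the HGF receptor, had 18 parental and 8 EIR tags at chr7:116408633-116409133 in intron 11, 587 bp from an alternative TSS and centred 96.6 kb from the canonical TSS, a fold of 3.07 (1.27 to 8.16). AXL, the GAS6 receptor, had 57 and 40 tags at chr19:41731745-41732245 in intron 4, 415 bp from an alternative TSS, a fold of 1.94 (1.28 to 2.99). Neither region was counted when the 5′ end of the gene was the sole start site, and that of MET was not counted with a window of 500 bp.

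GHR, the growth hormone receptor, was the single gene of the set that gained binding near a start site. GHR has no kinase domain of its own and signals through the kinase JAK2. Its region at chr5:42424246-42424906, in intron 1 and 705 bp from the canonical TSS, had 9 parental and 32 EIR tags and was 2.61-fold higher in EIR cells (1.22 to 6.21). No parental-higher region lay at GHR. The call rests on few tags, and GHR was not among the genes kept with an exact binomial p of at most 1e-04.

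Of the 16 receptors, ERBB3, FGFR4, PDGFRA, PDGFRB and KDR had no differential region. For these 5 the nearest region outside the gene, parental-higher in each case, lay 149.7 kb (ERBB3), 80.6 kb (FGFR4), 164.1 kb (PDGFRA), 153.1 kb (PDGFRB) and 220.9 kb (KDR) away. PDGFRA and PDGFRB are the platelet-derived growth factor receptors, and KDR is the main VEGF receptor of endothelium.

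All 4 docking proteins that link receptors to PI3K lost tags at the promoter. IRS2, which couples the insulin and IGF receptors to PI3K, had 139 parental and 54 EIR tags at chr13:110436589-110439067, a fold of 3.51 (2.55 to 4.90). IRS1, its close relative, had 51 and 30 tags over its canonical TSS (chr2:227664096-227664986), a fold of 2.32 (1.45 to 3.77). GAB1, a docking protein of MET and EGFR, had 80 and 46 tags (chr4:144257117-144258239), a fold of 2.37 (1.63 to 3.49). GAB2 had 85 and 53 tags (chr11:78127786-78128860), a fold of 2.19 (1.53 to 3.14). The IRS2 region was the longest of the gene set near a start site, at 2478 bp, and was no longer within 1 kb when distance was taken from its centre.

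PI3K subunits were mixed, with 5 of 9 genes carrying a region near a start site. PIK3CA, the catalytic subunit often mutated in this cancer, had 106 parental and 96 EIR tags at chr3:178866055-178867477, a fold of 1.51 (1.13 to 2.01) and the smallest among the parental-higher regions of the gene set. A start of its divergent non-coding neighbour PIK3CA-DT lies within 1 kb of the same region. PIK3CD, a catalytic subunit best known in leukocytes, had 29 and 17 tags (fold 2.33, 1.24 to 4.51) 177 bp from its canonical TSS and 56 and 32 tags (fold 2.39, 1.52 to 3.81) at a TSS further downstream, centred 37.9 kb into the gene. The 2 PIK3CD regions thus changed by nearly the same fold.

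PIK3R1, the regulatory subunit, is known for shorter forms made from internal promoters. It had 49 parental and 32 EIR tags at such an internal TSS in intron 7 (chr5:67584469-67585097), a fold of 2.09 (1.31 to 3.37), and no region at its canonical start. PIK3C2B, a class II enzyme, had 33 and 20 tags at exon 1, a fold of 2.25 (1.25 to 4.14). PIK3C3, the class III enzyme of autophagy and endosomes, had 20 and 10 tags in intron 20, 996 bp from an alternative TSS, a fold of 2.73 (1.22 to 6.53). That distance is just inside the 1 kb limit, and the nearest regions just outside were that of EIF4EBP1, at 1468 bp with 22 parental and 11 EIR tags, and an EIR-higher one of AKT1, at 1495 bp with 5 and 23 tags. PIK3C2A (class II), PIK3R2 and PIK3R3 (regulatory subunits) had no region, with the nearest at 62.9 kb, 31.7 kb and 65.5 kb; the one nearest PIK3R2 was EIR-higher.

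PHLPP1 and PHLPP2, phosphatases that remove an activating phosphate from AKT, both lost tags at the promoter. PHLPP1 had 117 parental and 53 EIR tags over its canonical TSS (chr18:60382504-60384074), a fold of 3.01 (2.16 to 4.25). PHLPP2 had 74 and 39 tags in intron 1, 469 bp from its canonical TSS (chr16:71757117-71758135), a fold of 2.59 (1.73 to 3.92). INPP4B, a phosphatase that degrades a PI3K lipid product, had no region near a start site and is described with the gene bodies.

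In the AKT branch, AKT1, PDPK1 and SGK3 lost tags over the canonical TSS, while AKT2 and SGK1 had no region. AKT1 had 131 parental and 54 EIR tags at chr14:105261177-105262423, a fold of 3.31 (2.39 to 4.63). SGK3, an endosomal kinase related to AKT, had 176 and 103 tags, the most of any region here, and a fold of 2.33 (1.82 to 3.00). PDPK1, the kinase that phosphorylates AKT in its activation loop, had 22 and 3 tags at chr16:2587900-2588400, a fold of 10.0 (3.01 to 52.2). This was the largest fold near a start site and rests on 3 EIR tags. A near-identical pseudogene copy, PDPK2P, lies nearby, and how reads shared with it were placed was not tested. The nearest regions to AKT2 and SGK1 lay 6.1 kb and 367.8 kb away.

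In the mTOR complexes, RPTOR, RICTOR and RHEB lost tags near a start site, while MTOR itself, TSC1, TSC2 and DEPTOR had no region. RPTOR, which defines mTOR complex 1, had 19 parental and 5 EIR tags over its canonical TSS (chr17:78518523-78519023), a fold of 5.18 (1.87 to 17.8). RICTOR, which defines mTOR complex 2, had 38 and 20 tags 123 bp from its canonical TSS (chr5:39073752-39074378), a fold of 2.59 (1.47 to 4.70). RHEB, the GTPase that activates mTOR complex 1, had regions on both sides of its canonical TSS, with 105 and 61 tags downstream (chr7:151215484-151216914; fold 2.35, 1.70 to 3.27) and 75 and 56 upstream (chr7:151217217-151218107; fold 1.83, 1.28 to 2.63). The nearest regions lay 5.96 kb from MTOR, 12.6 kb from TSC1, 20.2 kb from TSC2 and 17.7 kb from DEPTOR, all parental-higher. TSC1 and TSC2 form the brake on RHEB, and DEPTOR is an inhibitor of mTOR.

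The effectors of mTOR complex 1 had no region near a start site. EIF4EBP1, the translation repressor that the complex phosphorylates, had 1 region in intron 1, with 22 parental and 11 EIR tags and a fold of 2.73 (1.27 to 6.23). RPS6KB1 and RPS6KB2, the S6 kinases, had none, and the nearest regions lay 38.3 kb and 7.04 kb away. Over the 16 genes without a region, the median distance to the nearest one was 50.6 kb.

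**Figure D3:**
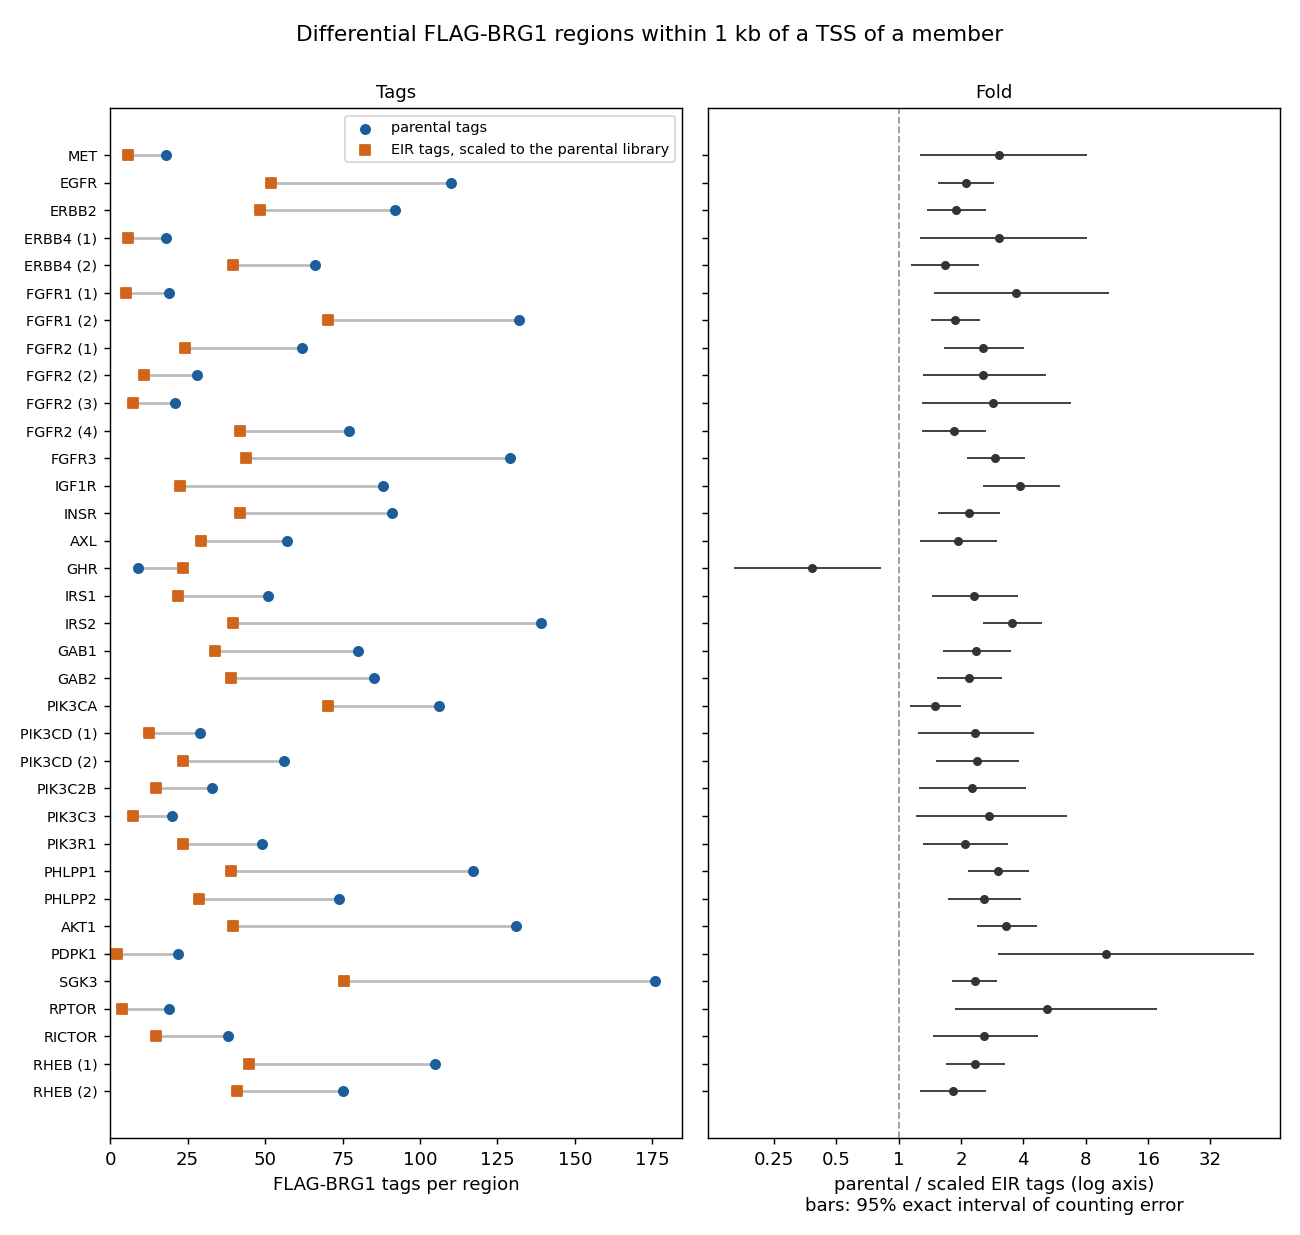
The 35 differential regions within 1 kb of a TSS, in order of role. Left, FLAG-BRG1 tags in each region in parental cells (circles) and in EIR clone 3 after scaling (squares); right, the parental over EIR fold on a log axis with its exact 95% interval of counting error. Numbers in brackets tell apart regions of the same gene in order of coordinate. The circle lies to the right of the square in each case but GHR. Among the parental-higher regions PIK3CA has the smallest fold, 1.51, and PDPK1 the largest, 10.0.

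Over the 35 regions near start sites, the median fold was 2.37, beside 2.47 over all protein-coding genes, so where a pathway gene had a region the size of the change was about that of other genes. The parental-higher regions of the pathway had more tags (median 70 parental tags against 48) and were longer (890 against 752 bp for the parental-higher regions near start sites). The parental-higher regions with few tags had the larger folds, with a median of 3.07 for the 9 under 30 parental tags, 2.29 for the 8 with 30 to 69 and 2.33 for the 17 with at least 70. Over all parental-higher regions the medians were 3.14 under 30 tags and 2.34 at 70 or more, and a region with few tags has to change more to be called. Of the 34 parental-higher regions, 15 covered the canonical TSS of their gene, and 16 had an interval wholly above 1.5. In 7 of the 35 regions the TSS of another gene also lay within 1 kb (at IGF1R, IRS1, IRS2, PIK3CA, PHLPP2, RPTOR and RICTOR).

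In gene bodies, 14 genes had 38 parental-higher and 4 EIR-higher regions. Of the parental-higher ones, 35 lay wholly in introns, 17 of them in intron 1, 2 touched coding sequence, and 1 lay in exon 2 of IRS1. They were weaker than the promoter regions, with a median of 20.5 parental tags in 500 bp and a median fold of 3.07, the same fold as over all protein-coding genes. Per 100 kb of gene there were 0.553 parental-higher regions, against 0.271 over protein-coding genes, and 0.0582 EIR-higher ones, against 0.0596. ERBB4, INPP4B, MET and RPTOR together held 26 of the 38.

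INPP4B carried 7 parental-higher regions, all in its introns, and none near a start site. A group of 4 lay within 32.8 kb of intron 7, with 29 and 14 tags, 47 and 23 tags, 17 and 3 tags, and 21 and 9 tags in parental and EIR cells. The other 3 lay in intron 2 with 27 and 12, 18 and 8, and 18 and 8 tags. The largest fold in a gene body was in the intron 7 group (chr4:143292265-143292765), at 7.73 (2.24 to 41.2) on 3 EIR tags. Of the regions beyond 5 kb of any TSS, INPP4B held 6, and the 5 Mb on either side of the gene held 1 parental-higher and 5 EIR-higher ones. Parental-higher regions were thus denser in INPP4B, which is 824 kb long, than in the sequence around it. This was not tested, and INPP4B was compared with its flanks because it held many regions, which favours such a result.

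MET held 6 parental-higher regions, with parental tags from 16 to 38 and folds from 2.35 to 3.41. The 3 in intron 2, spread over 21.9 kb, had 31 and 18, 22 and 11, and 20 and 8 tags and are those with the AP-1 matches printed above. Beyond 5 kb of any TSS, MET held 5, and the 5 Mb on either side held 4. EGFR held 3 in intron 1, with 22 and 10, 20 and 7, and 18 and 8 tags, and the flanks of EGFR held 2. At both receptor genes the parental-higher regions were denser in the gene than around it, a description with no test. These gene-body regions were described after their values were seen, so the higher density follows in part from that choice.

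ERBB4 held 8 parental-higher gene-body regions, 7 of them in intron 1, with parental tags from 17 to 76 and folds from 1.92 to 4.64. Its flanks, 10 Mb in all, held 10 parental-higher regions beyond 5 kb of a TSS (1.0 per Mb). The gene, 1163 kb long, held 7. RPTOR held 5, with parental tags from 19 to 32 and folds from 2.18 to 3.30. The flanks of RPTOR, cut short by the end of the chromosome at 7.26 Mb in all, held 8 (1.10 per Mb). RPTOR is 422 kb long, and its 5 also lay beyond 5 kb of a TSS. In both genes these regions were thus denser than in the flanks, with no test here either. Genes with several gene-body regions were picked for this comparison, so a higher density than in the flanks follows largely from that choice. Other long genes of the set, such as GHR (298 kb), PHLPP1 (265 kb) and GAB2 (203 kb), held no parental-higher region beyond 5 kb of a TSS.

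PIK3CB and IRS1 gave the next largest folds in gene bodies. PIK3CB, a catalytic PI3K subunit with no region near a start site, had 24 parental and 7 EIR tags in intron 2 (chr3:138493171-138493671), a fold of 4.68 (1.96 to 12.9). IRS1 had 18 and 4 tags in intron 1 (chr2:227644408-227644908), a fold of 6.14 (2.02 to 24.9), and a further 2 regions with 23 and 12 and 18 and 8 tags. IRS1 lost tags at all 4 of its regions. RHEB (44 and 17 tags), IRS2 (23 and 12) and PIK3C3 (18 and 6) had 1 parental-higher gene-body region each.

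IGF1R, GAB2 and AKT1 lost tags at the promoter and gained them inside the gene. EIR-higher gene-body regions were about as dense in the 47 genes as over protein-coding genes (0.0582 against 0.0596 per 100 kb). The share of genes with one was 6.38% against 3.13%. These were not tested, and no pattern is read from the 3 genes. IGF1R had an EIR-higher region in intron 1 (chr15:99225980-99226480) with 2 parental and 23 EIR tags, 8.43-fold higher in EIR cells (2.08 to 73.8), the largest gain in the gene set and one that rests on 2 parental tags. In intron 2, an EIR-higher region with 5 and 23 tags (3.37-fold, 1.25 to 11.4) lay 2.11 kb from a parental-higher one with 36 and 23 tags (fold 2.14, 1.23 to 3.77). Neighbouring sites in the same intron thus moved in opposite directions, with equal tags in EIR cells.

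AKT1 had 5 parental and 23 EIR tags around exon 13 (chr14:105238512-105239012), centred 23.3 kb from the canonical TSS and 3.37-fold higher in EIR cells (1.25 to 11.4). GAB2 had 5 and 22 tags in intron 1 (chr11:78124270-78124770), centred 4.35 kb from the canonical TSS and 3.23-fold higher in EIR cells (1.19 to 10.9). All 4 of these EIR-higher regions were 500 bp long, the shortest length in the lists, and none was kept with an exact binomial p of at most 1e-04.

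**Figure D4:**
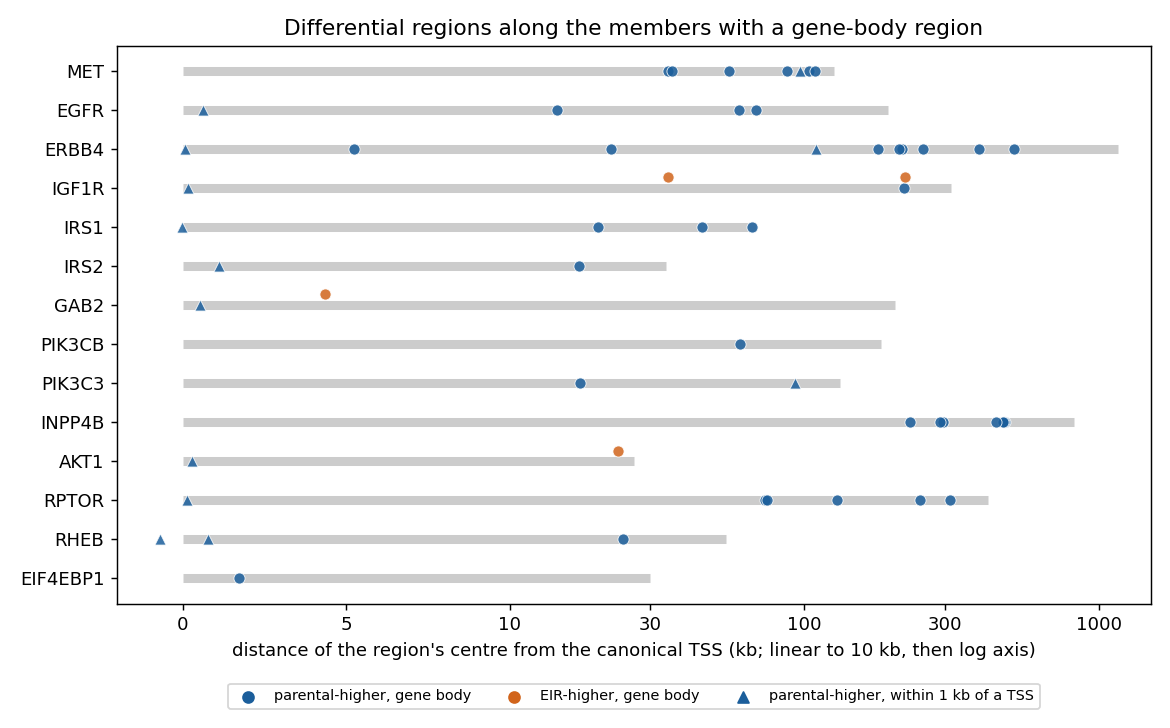
Positions of the differential regions in the 14 genes with a gene-body region, as the distance of the centre of the region from the canonical TSS in the direction of transcription (kb, linear to 10 kb and logarithmic beyond). Grey bars are the genes, circles are gene-body regions (EIR-higher ones raised above the bar) and triangles are regions within 1 kb of a TSS. The 4 EIR-higher regions lie in IGF1R, GAB2 and AKT1, and the 7 regions of INPP4B lie from 229 to 481 kb into the gene.

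Beyond the 47 genes, 140 other genes of the pathway were counted in the same way. A parental-higher region lay within 1 kb of a TSS at 45 of them (32.1%, against 23.2% of protein-coding genes) and an EIR-higher one at 3 (2.14%, against 1.96%). In the gene body, 23 (16.4%, against 9.22%) had a parental-higher and 10 (7.14%, against 3.13%) an EIR-higher region. Of the 140 genes, 62 had a region of either list (44.3%, against 30.5%) and 78 had none. By list, the count was 9 of 15 adaptors and receptor regulators, 10 of 28 ligands, 8 of 36 other receptor tyrosine kinases, 4 of 13 PI3K and lipid phosphatase genes, 4 of 11 AKT effectors, 5 of 26 mTOR inputs and 5 of 11 effectors of mTOR complex 1. Adaptors and receptor regulators had the highest share in this list, and adaptors had it in the 47 genes. Both lists were chosen with earlier results of these data known, so this is no independent repeat. The groups are small and were not tested.

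Among these, EPHB2, an ephrin receptor, had 93 parental and 18 EIR tags near a TSS, a fold of 7.05 (4.22 to 12.4). GRB10, an adaptor that restrains insulin signalling, had 120 and 39 tags, a fold of 4.20 (2.90 to 6.19). The share with an EIR-higher region near a start site was close to that of all protein-coding genes, so nothing is read from the 3 genes concerned. FLT1 had 3 parental and 24 EIR tags (5.86-fold higher in EIR cells, 1.78 to 30.4), ROR2 3 and 22 (5.38-fold, 1.61 to 28.1) and RET 5 and 24 (3.52-fold, 1.32 to 11.8).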

How the data were processed

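FLAG-tagged SMARCA4 was profiled in 1 parental and 1 EIR clone library. The authors aligned reads with Bowtie (0.12.9 in the submitters' notes) to hg19 and called regions with HOMER in each library with the other as control, in its histone style, keeping those under a 5% FDR. The deposited files give tag counts of the parental library, an estimated count for parental tags in the EIR list (0.5 where there was none), and the EIR signal scaled to the parental total. No input control is in this comparison. Of 75 distinct scaled values, 100% were whole multiples of 0.733 within 0.05, which gave the EIR tags.

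Regions were joined to GENCODE release 44 TSSs on hg19 with Python 3.11.15 and pandas 2.3.3. Folds have exact Clopper-Pearson 95% intervals (scipy 1.17.1). On 2000 simulated regions, 96.8% of intervals held the true fold. The simulated regions were not selected for a difference, as the called regions were, so this share does not carry over to the intervals given here. Low-tag folds are imprecise. The gene set, roles and the list of 140 further genes were chosen with earlier results of these data known. Every gene with a region within 1 kb was named, and of gene-body regions the 3 largest folds in each direction, those of genes without a nearer region, and genes with both directions; other gene-body regions were described after their values were seen. No p-values were computed beyond the exact binomial limit of an alternative.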

Additional observations from a re-analysis of the deposited data

How the results depend on the processing

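Alternatives were a minimum fold, an exact binomial limit (p of at most 1e-04), that limit together with EIR tags counted 1.5 times higher or lower, and other windows, distances and start sites. The 27 genes with a parental-higher region within 1 kb became 2 at a fold of at least 4 (2.01% of protein-coding genes), 17 at the binomial limit (10.6%) and 5 (AKT1, FGFR3, IGF1R, IRS2 and PHLPP1; 2.34%) at that limit with EIR tags 1.5 times higher, and stayed between 21 and 30 otherwise. Parental-higher regions (72) became 7, 20 and 5, and genes without a region (16) became 39, 28 and 42, in the same order. EIR-higher regions (5) became 1, 0 and 1, and 0 at the limit with EIR tags 1.5 times lower. The limit alone lost GHR, as did the 3 other settings named (0 genes), and a 5 kb window gave 4 genes. Genes with a region in the body only (3) became 6 at a fold of at least 4, 0 at the limit with EIR tags 1.5 times higher, 5 at 500 bp, 0 at 5 kb, 5 by distance from the centre and 9 with the 5′ end of each gene. The median fold near start sites (2.37) became 7.59 at a fold of at least 4, and with EIR tags 1.5 times lower 3.52 at the binomial limit and 3.56 over all regions, against 1.58 with EIR tags 1.5 times higher. Each follows from fewer regions kept, another window or the scaling itself. No region changed direction when 1 tag was added to each library or when the scaling was moved. The scaling could not have reversed any, since the smallest fold, 1.51 at PIK3CA, was above 1.5, and 1 tag is small beside these differences. The fold left its main interval at 18 regions with EIR tags 1.5 times higher and at 17 with EIR tags 1.5 times lower. With EIR tags 1.5 times higher, however, the fold fell to 1.00 at PIK3CA and to 1.11 at the canonical TSS of ERBB4, which leaves little difference there. No paired analysis was possible because each condition has 1 library. Depth limits the weakest calls, which rest on 2 to 9 tags in the lower library.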
